A study of Mus musculus with 8 samples.

Results

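The aminoacyl-tRNA synthetases were examined in renal cortex of mice whose nephron epithelium had lost Tfam. Members were taken by gene name from the deposited table and number 36 of its 35275 genes, all of which had enough counts to be among the 15028 genes tested. Names ending in 2 form the mitochondrial set of 16 genes, and the other 20 form the cytosolic set, in which Gars and Kars are shared, since each makes the enzyme for both compartments. Tarsl2, another synthetase gene in the table, is not on the list. It was named after its value was seen, a log2 change of -0.05, and did not pass the edgeR test, with adjusted p = 0.65.

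An aminoacyl-tRNA synthetase joins an amino acid to its matching tRNA, and the charged tRNA then brings that amino acid to the ribosome. Mitochondria translate their own mRNAs with a separate set of nuclear-encoded synthetases, so Tfam, which packages and transcribes mitochondrial DNA, lies upstream of the tRNAs that the mitochondrial set charges. In mammalian cells many cytosolic synthetase genes are known targets of ATF4, the transcription factor of the integrated stress response, and that response can itself be started by uncharged tRNA. Synthetases fall into class I and class II by the fold of their catalytic domain, and several cytosolic ones sit in a multisynthetase complex held together by scaffold proteins.

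The groups were 4 mutants, labelled as mice of a Six2-Tfam knockout line, and 4 Cre-negative controls, all at postnatal day 7, with 1 library per mouse. Six2 drives Cre in nephron progenitors, so the collecting duct, stroma, vessels and immune cells keep Tfam, and no group had Cre with intact Tfam. Total counts ranged from 16968196 to 20417550 in mutants and from 15597762 to 17976888 in controls, and member counts from 140 for Pars2 in Mut1819 to 25180 for Lars2 in Mut1393. Tfam averaged 27.0 ± 0.465 CPM in mutants and 53.1 ± 2.96 CPM in controls (SD, n = 4 each). Counts of Y-linked genes were present in Mut1393, Mut1453 and Mut1454 and near 0 in Mut1819 and all controls, so sex differed between the groups, and results were also computed with a term for it. Many cell markers also moved. The 5 proximal tubule markers all fell and summed to 519 to 942 CPM in mutants, against 3568 to 4784 CPM in controls. The 4 podocyte markers all fell and summed to 835 to 1074 CPM in mutants, against 1350.2 to 1502 CPM in controls. Both loop of Henle markers fell and summed to 950.4 to 1233 CPM in mutants, against 1919 to 2304 CPM in controls, and both of the distal convoluted tubule fell and summed to 58.1 to 91.5 CPM in mutants, against 350.5 to 415 CPM in controls. Outside the Six2 lineage, 3 of 4 collecting duct markers fell, and the 4 summed to 338 to 620.1 CPM in mutants, against 626 to 823 CPM in controls. The 4 endothelial markers all fell and summed to 488 to 555 CPM in mutants, against 624 to 723 CPM in controls. The 4 macrophage markers all rose and summed to 116 to 130.2 CPM in mutants, against 75.6 to 86.1 CPM in controls. Other types moved less. Of 4 stroma markers 1 fell, and the sums overlapped, with 1597 to 1873 CPM in mutants and 1468 to 2253 CPM in controls. The 3 erythroid markers did not pass, and their sums overlapped, with 129 to 185 CPM in mutants and 144 to 203 CPM in controls. None of these markers was at 0, and their part in the results was not tested. In whole cortex, fewer cells of a type and less RNA per cell cannot be told apart. Per-mouse values are given as CPM, meaning counts scaled by each library's TMM-adjusted total, in the order Mut1393, Mut1453, Mut1454 and Mut1819 for mutants and Con1391, Con1452, Con1822 and Con1823 for controls. Log2 fold changes are mutant over control.

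Cytosolic synthetase mRNAs rose in the mutants and most mitochondrial ones moved little. Of the 20 cytosolic or shared genes, 18 rose and 0 fell at an adjusted p under 0.05 in edgeR, and Dars and Qars did not reach it. The median log2 fold change of the 20 was 1.06. Of the 16 mitochondrial genes, 6 rose, 1 fell and 9 did not reach the threshold, and the median was 0.14. Over all genes tested 46.2% passed, 23.5% rising and 22.7% falling, and the median over all of them was 0.00. A rise of at least 1 log2 unit was reached by 11 cytosolic genes and 0 mitochondrial genes, against 3.72% of all genes tested. All 4 mutants lay above all 4 controls in 18 cytosolic and 4 mitochondrial genes, as they did in 22.1% of all genes tested. The opposite, all mutants below all controls, was seen for 0 members and for 20.8% of all genes tested. Summed over the 20 cytosolic genes, mutants held 3304, 3825, 3973 and 3535 CPM, against 1773, 1796, 1813 and 1746 CPM in controls, a ratio of means of 2.05. The authors' deposited table, with the authors' own test, puts 24 members higher and 1 lower at an adjusted p under 0.05, the same 25 members.

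**Figure D1:**
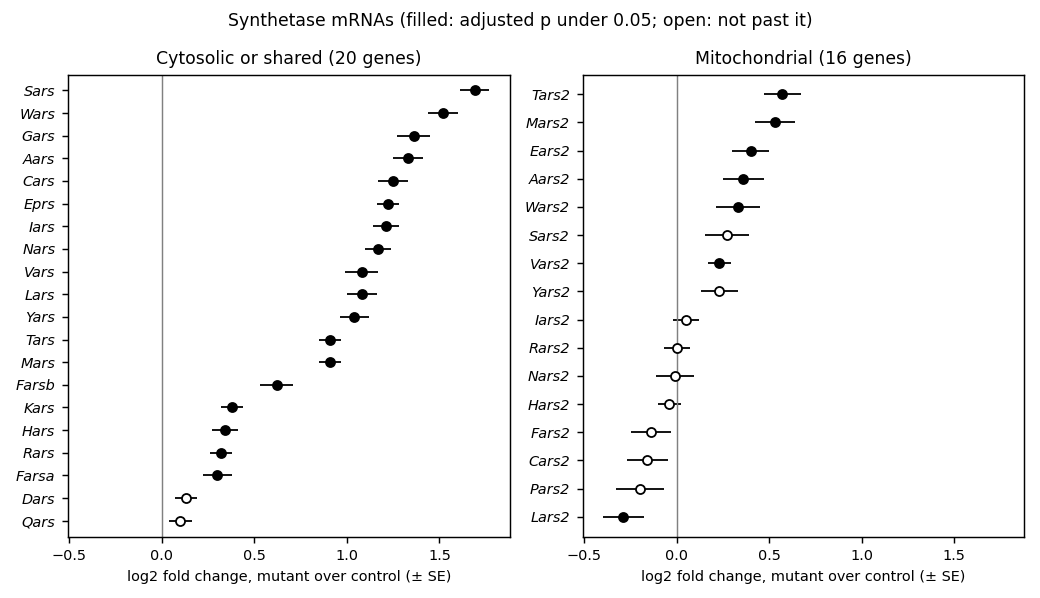
Log2 fold change of each synthetase mRNA, mutant over control, on the horizontal axis, with 20 cytosolic or shared genes on the left and 16 mitochondrial genes on the right, points as edgeR estimates and bars as SE derived from the F test. Cytosolic genes run from 0.10 for Qars to 1.69 for Sars, and mitochondrial genes from -0.29 for Lars2 to 0.57 for Tars2.

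Among class II enzymes the seryl-, glycyl-, alanyl- and asparaginyl-tRNA synthetases rose most. Sars, which loads serine onto its tRNAs (mm10 chromosome 3, 108424865 to 108445209, minus strand), had 418, 494, 496 and 449.9 CPM in the mutants, against 152, 146, 129.7 and 147 CPM in the controls. No mutant came near the control range, and the log2 fold change of 1.69 with an SE of 0.08 (adjusted p = 2.08e-08) was the largest of the 36. Gars, the shared glycyl enzyme, had 245, 309, 334 and 263 CPM in the mutants, against 112, 114, 119 and 106 CPM in the controls. The mutants differed more among themselves than the controls did, yet all stood above them, with a log2 fold change of 1.36 with an SE of 0.09 (adjusted p = 3.48e-07). Aars, the alanyl enzyme, which also clears mischarged serine from its tRNA, had 339, 423, 432 and 396 CPM in the mutants, against 158, 157, 166 and 151 CPM in the controls. Mut1393 was the lowest mutant and still well above the highest control, and the log2 fold change was 1.33 with an SE of 0.08 (adjusted p = 1.22e-07). Nars, the asparaginyl enzyme, had 325, 375, 393 and 342 CPM in the mutants, against 156, 167, 163 and 153 CPM in the controls. The groups did not overlap, and the log2 fold change was 1.17 with an SE of 0.07 (adjusted p = 1.34e-07).

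Among class I enzymes Wars led, followed by Cars, Iars, Lars, Vars and Yars. Wars, the tryptophanyl enzyme, also known as an interferon-induced gene in human cells, had 174, 207, 219 and 193 CPM in the mutants, against 72.2, 68.0, 74.4 and 62.0 CPM in the controls. Every mutant was above every control, with a log2 fold change of 1.52 with an SE of 0.08 (adjusted p = 5.74e-08). Cars, the cysteinyl enzyme and the cytosolic member with the lowest control level in CPM, had 65.4, 70.9, 79.4 and 70.8 CPM in the mutants, against 30.9, 26.6, 32.8 and 30.0 CPM in the controls. It stood apart between the groups too, with a log2 fold change of 1.25 with an SE of 0.08 (adjusted p = 1.82e-07). The 3 enzymes for branched-chain amino acids rose by similar amounts. Iars, for isoleucine, had 191, 213, 214 and 189 CPM in the mutants, against 81.8, 88.8, 93.4 and 83.6 CPM in the controls, and a log2 fold change of 1.21 with an SE of 0.07 (adjusted p = 6.21e-08). Lars, for leucine, known in human cells also as a leucine sensor for mTORC1 signalling, had 114, 146, 154 and 130.2 CPM in the mutants, against 63.8, 64.4, 62.8 and 66.3 CPM in the controls, and a log2 fold change of 1.08 with an SE of 0.08 (adjusted p = 9.84e-07). Vars, for valine, had 145, 176, 185 and 165 CPM in the mutants, against 75.1, 76.8, 90.3 and 74.3 CPM in the controls, and a log2 fold change of 1.08 with an SE of 0.09 (adjusted p = 1.11e-06). In all 3 the groups did not overlap, and Con1822 was the highest control for Iars and Vars. Yars, the tyrosyl enzyme, had 105, 131, 133 and 122 CPM in the mutants, against 60.6, 58.9, 65.5 and 54.4 CPM in the controls. Its log2 fold change of 1.04 with an SE of 0.08 (adjusted p = 1.07e-06) was the smallest of the 11 genes with at least 1 log2 unit. Eprs, a fused enzyme with a class I part for glutamate and a class II part for proline, had 332, 379, 378 and 351 CPM in the mutants, against 147, 157, 161 and 153 CPM in the controls. Mutants and controls were far apart relative to their spread, with a log2 fold change of 1.22 with an SE of 0.06 (adjusted p = 4.66e-08).

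**Figure D2:**
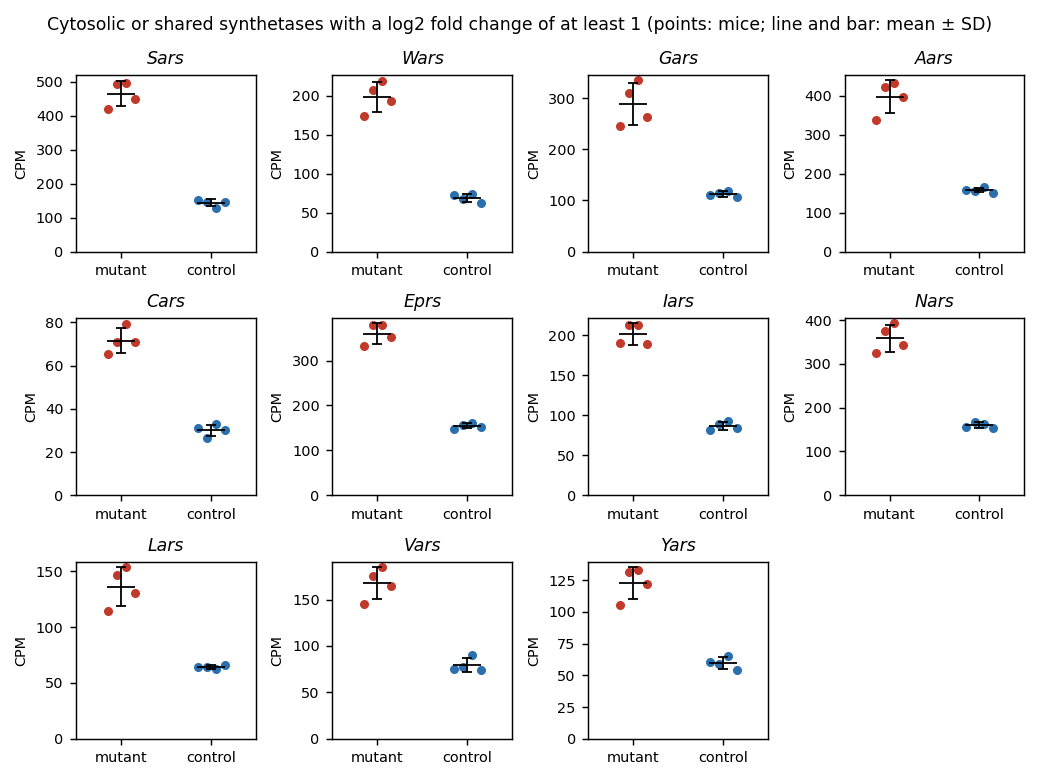
CPM in each mouse for the 11 cytosolic or shared synthetases with a log2 fold change of at least 1, mutants in red on the left of each panel and controls in blue, with black lines and bars for mean ± SD (n = 4 each). In every panel the 4 mutants lie above the 4 controls, from 465 against 144 CPM for Sars to 123 against 59.9 CPM for Yars.

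The other cytosolic genes rose less, and those for aspartate and glutamine did not pass the test. Mars, the methionyl enzyme that also supplies initiator tRNA, averaged 115 ± 6.14 CPM in mutants and 61.0 ± 1.82 CPM in controls (SD, n = 4 each), a log2 fold change of 0.91 with an SE of 0.06 (adjusted p = 1.41e-07). Tars, the threonyl enzyme, averaged 117 ± 9.08 CPM in mutants and 62.3 ± 2.56 CPM in controls, a log2 fold change of 0.91 with an SE of 0.06 (adjusted p = 4.9e-07). Phenylalanyl-tRNA synthetase is made of 2 kinds of subunit from separate genes. Its beta subunit gene Farsb rose by 0.62 (adjusted p = 0.000107) and its alpha subunit gene Farsa by 0.30 (adjusted p = 0.00708). Kars, the shared lysyl enzyme, rose by 0.38, Hars, for histidine, by 0.34, and Rars, for arginine, by 0.32. In each of these 7 genes all mutants lay above all controls. For Hars and Farsa the call was lost with the sex term (adjusted p = 0.154 for each in edgeR), where the log2 fold changes were 0.23 and 0.25. With Mut1819 as the only mutant, which is the same contrast, they were 0.23 and 0.25. Qars, for glutamine, had 125, 124, 116 and 116 CPM in the mutants, against 109.7, 116, 102 and 121 CPM in the controls. The groups overlapped, and the log2 fold change was 0.10 with an SE of 0.06 (adjusted p = 0.2). Dars, for aspartate, had 112, 101, 116 and 107 CPM in the mutants, against 95.6, 105, 96.7 and 103 CPM in the controls. Here too the groups overlapped, with a log2 fold change of 0.13 with an SE of 0.06 (adjusted p = 0.102).

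Both genes that did not pass belong to the multisynthetase complex. Of its 8 synthetase genes, Eprs, Iars, Lars, Mars, Kars and Rars rose and Dars and Qars did not pass. Their median log2 fold change was 0.65. All 12 genes outside the complex rose, with a median of 1.13. The difference between these sets was not tested. The scaffold genes Aimp1, Aimp2 and Eef1e1 all rose. Eef1e1 averaged 33.5 ± 3.01 CPM in mutants and 19.6 ± 1.11 CPM in controls, a log2 fold change of 0.77 with an SE of 0.08 (adjusted p = 1.02e-05), and Aimp1 and Aimp2 rose by 0.51 and 0.39. By class, 8 of 9 cytosolic class I genes and 9 of 10 class II genes rose, with medians of 1.08 and 0.76.

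Since many of these genes moved together, the promoter windows of RefSeq (build GRCm38.p6) were searched for TGATGNAA, the core of the element that ATF4 binds with its C/EBP partners, on both strands. Of the members, 26 have a window, and Cars, Hars, Lars, Mars, Nars, Rars, Vars, Wars, Hars2 and Pars2 do not. In the 250 bases before the start, 3 members held a match, Gars and Tars among them. That is 3 of 12 cytosolic and 0 of 14 mitochondrial genes with a window, and 3.91% of all genes with a window held one. All 3 were genes that rose, as were 18 of the 20 cytosolic genes, and a link between match and rise was not tested. The matches begin 30 and 15 bases before the start of Gars and Tars, and in both the motif reads on the strand opposite the gene. The windows of Gars (chr6:55037751-55038000, plus strand) and Tars (chr15:11399659-11399908, minus strand) are shown with the match in capitals.
Gars: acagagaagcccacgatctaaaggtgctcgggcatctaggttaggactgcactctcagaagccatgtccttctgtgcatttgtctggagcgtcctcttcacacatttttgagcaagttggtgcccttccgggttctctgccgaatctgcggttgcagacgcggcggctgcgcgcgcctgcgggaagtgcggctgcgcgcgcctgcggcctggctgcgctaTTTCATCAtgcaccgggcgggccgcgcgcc
Tars: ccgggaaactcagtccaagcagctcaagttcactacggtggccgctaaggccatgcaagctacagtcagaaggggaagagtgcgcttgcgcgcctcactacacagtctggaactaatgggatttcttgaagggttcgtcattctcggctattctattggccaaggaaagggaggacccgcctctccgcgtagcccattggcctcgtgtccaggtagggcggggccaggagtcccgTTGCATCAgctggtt

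With the 50 bases after the start included, Iars and Yars also held a match, so that 5 of 26 members matched, against 4.51% of all genes. These sites begin at base 8 and 4, counted from 1 at the RefSeq start, of Iars (chr13:49682126-49682155) and Yars (chr4:129189895-129189924), both genes on the plus strand, and are shown with their flanks and the match in capitals.
Iars: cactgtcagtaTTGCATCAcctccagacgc
Yars: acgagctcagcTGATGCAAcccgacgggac
A match is a description of the letters, and no binding was measured.

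The mutants held a similar order across genes. Among the 11 cytosolic genes with at least 1 log2 unit, Mut1454 was the highest mutant for 10 and Mut1393 the lowest for 10. The median deviation of the 20 cytosolic genes from their control means was 0.82, 1.15, 1.19 and 1.02 log2 units in the mutants, against 0.01, 0.02, 0.05 and -0.03 in the controls. For the 16 mitochondrial genes it was 0.02, 0.23, 0.18 and 0.12 in the mutants, against -0.03, 0.09, 0.01 and -0.03 in the controls. Mut1819, the mutant without Y-linked counts, thus stood between the others for the cytosolic set, and for the mitochondrial set Mut1393 lay within the controls. With the sex term 16 of the 20 cytosolic genes rose, with a median log2 fold change of 1.02. Mouse numbers fall into the ranges 1300, 1400 and 1800, whose meaning the labels do not give. All 18 cytosolic genes that rose were higher in mutants within each range. This had to follow, since for each of them every mutant lay above every control. For Sars the log2 ratio was 1.46, 1.76 and 1.70 in the 3 ranges.

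**Figure D3:**
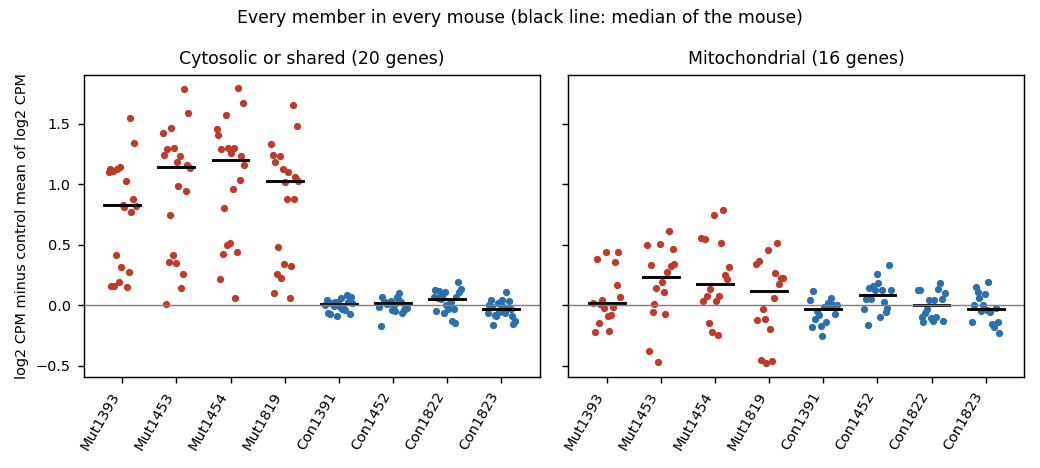
Log2 CPM of every synthetase in every mouse minus the gene's mean over controls (vertical axis, log2 units), mutants in red and controls in blue, with a black line at the median of each mouse. The cytosolic medians of the 4 mutants lie from 0.82 to 1.19, and the mitochondrial ones from 0.02 to 0.23.

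In the mitochondrial set 6 genes rose by small amounts and Lars2 was lower. Tars2, the threonyl enzyme of the matrix (mm10 chromosome 3, 95739976 to 95760206, minus strand), had 36.9, 44.0, 49.6 and 41.2 CPM in the mutants, against 30.0, 27.7, 32.7 and 25.4 CPM in the controls. The groups did not overlap, and the log2 fold change was 0.57 with an SE of 0.10 (adjusted p = 0.000587). Mars2, which charges the methionine tRNA that mitochondria use for both initiation and elongation, had 22.2, 23.3, 27.5 and 22.5 CPM in the mutants, against 13.8, 19.6, 15.2 and 17.5 CPM in the controls. All mutants were above all controls, with a log2 fold change of 0.53 with an SE of 0.11 (adjusted p = 0.00251). Ears2, whose glutamyl-tRNA products include the one later turned into glutaminyl-tRNA, had 16.7, 16.1, 18.7 and 16.5 CPM in the mutants, against 13.9, 11.4, 11.9 and 14.2 CPM in the controls. These groups stood apart as well, with a log2 fold change of 0.40 with an SE of 0.10 (adjusted p = 0.00575). Vars2, for valine, had 30.5, 34.1, 32.4 and 30.8 CPM in the mutants, against 27.2, 26.7, 28.1 and 26.8 CPM in the controls. The controls lay close together below the mutants, and the log2 fold change was 0.23 with an SE of 0.06 (adjusted p = 0.0101). Aars2, for alanine, had 22.5, 31.4, 32.5 and 28.1 CPM in the mutants, against 22.9, 21.7, 24.1 and 20.1 CPM in the controls. Mut1393 lay within the controls, and the log2 fold change was 0.36 with an SE of 0.11 (adjusted p = 0.0177). Wars2, for tryptophan, had 23.9, 24.3, 20.5 and 20.6 CPM in the mutants, against 16.8, 22.2, 16.1 and 16 CPM in the controls. Con1452 exceeded Mut1454 and Mut1819, and the log2 fold change was 0.33 with an SE of 0.12 (adjusted p = 0.0351).

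With the sex term Tars2 was the only mitochondrial gene that still passed as higher (log2 fold change 0.51, adjusted p = 0.0347 in edgeR). The estimates of the others that rose stayed positive, such as 0.45 for Mars2, 0.36 for Ears2 and 0.34 for Aars2. Mut1819 and all controls had Y-linked counts near 0, so this term leaves Mut1819 to be compared with the controls. Mut1819 as the only mutant is thus the same contrast, and it gave 0.51 for Tars2. Single mice decided the calls of Aars2 and Wars2. Aars2 did not pass without Con1823, Mut1453 or Mut1454 (adjusted p = 0.0576, 0.0546 and 0.0589). Wars2 did not pass without Con1391, Con1822, Con1823, Mut1393 or Mut1453 (adjusted p = 0.0869, 0.0937, 0.104, 0.0731 and 0.0952). The 9 mitochondrial genes that did not pass were Sars2, Yars2, Iars2, Rars2, Nars2, Hars2, Fars2, Cars2 and Pars2, with log2 fold changes from -0.20 for Pars2 to 0.27 for Sars2. Sars2 passed without Mut1393 (adjusted p = 0.0169), and Yars2 without Con1452 or Mut1393 (adjusted p = 0.0491 and 0.0285). Fars2, the single-chain phenylalanyl enzyme of mitochondria, was lower with the sex term (log2 fold change -0.46, adjusted p = 0.0318 in edgeR). The same contrast with Mut1819 alone gave -0.46.

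Lars2, the mitochondrial leucyl enzyme (mm10 chromosome 9, 123366927 to 123462666, plus strand), had 1227, 899, 1068 and 894 CPM in the mutants, against 1106, 1356, 1282 and 1249.7 CPM in the controls. Mut1393 lay inside the control range and Con1391 between the mutants, so the groups overlapped. Its log2 fold change of -0.29 with an SE of 0.11 (adjusted p = 0.042) was the only fall among the 36, and it did not pass without Con1452, Con1822, Con1823, Mut1453, Mut1454 or Mut1819 (adjusted p = 0.107, 0.079, 0.0825, 0.129, 0.0624 and 0.119). Within the ranges of mouse numbers the log2 ratio for Lars2 was 0.15, -0.46 and -0.50. It did not pass without the filter on low counts (adjusted p = 0.0513) or with the sex term (log2 fold change -0.48, adjusted p = 0.0517). Lars2 held most of the counts of the mitochondrial set. Summed over the 16 genes, mutants averaged 1516 ± 158 CPM and controls 1699 ± 123 CPM. Without Lars2 the sums were 494 ± 31.6 CPM in mutants and 450 ± 21.4 CPM in controls (SD, n = 4 each).

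For amino acids with a gene in each compartment, the ratio of cytosolic to mitochondrial mRNA was formed within each mouse from the authors' FPKM, which are scaled by gene length. A ratio within a mouse does not depend on how libraries are scaled to each other. The ratio was higher in all mutants than in all controls in 16 of 17 pairs, in which Eprs and Fars2 each stand in 2 pairs. The median difference was 0.85 log2 units, and these are descriptions with no test. Every cytosolic gene in the pairs was one that rose without overlap between the groups, so this count partly restates those calls. Dars and Qars, the cytosolic genes that did not pass, stand in no pair. For serine, the log2 ratio of Sars to Sars2 was 5.09, 5.04, 4.80 and 4.91 in the mutants, against 3.61, 3.53, 3.25 and 3.71 in the controls. No control reached the mutants, and the means differed by 1.43, the largest difference among the pairs. For alanine, the ratio of Aars to Aars2 was 4.58, 4.42, 4.40 and 4.49 in the mutants, against 3.46, 3.52, 3.45 and 3.58 in the controls. The mutants were again all higher, by 0.97 on average. The smallest difference was for arginine, where Rars over Rars2 was 1.0, 0.97, 1.01 and 0.91 in the mutants, against 0.58, 0.62, 0.70 and 0.67 in the controls. Even there the groups did not overlap. For methionine they did, and Mars over Mars2 was 4.95, 5.04, 4.78 and 4.99 in the mutants, against 4.88, 4.26, 4.68 and 4.45 in the controls. Con1391 lay within the mutants for that pair. Leucine was the only pair whose mitochondrial mRNA was clearly the more abundant per length in all mice, with Lars over Lars2 at -3.42, -2.61, -2.78 and -2.77 in the mutants, against -4.11, -4.39, -4.34 and -4.23 in the controls.

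**Figure D4:**
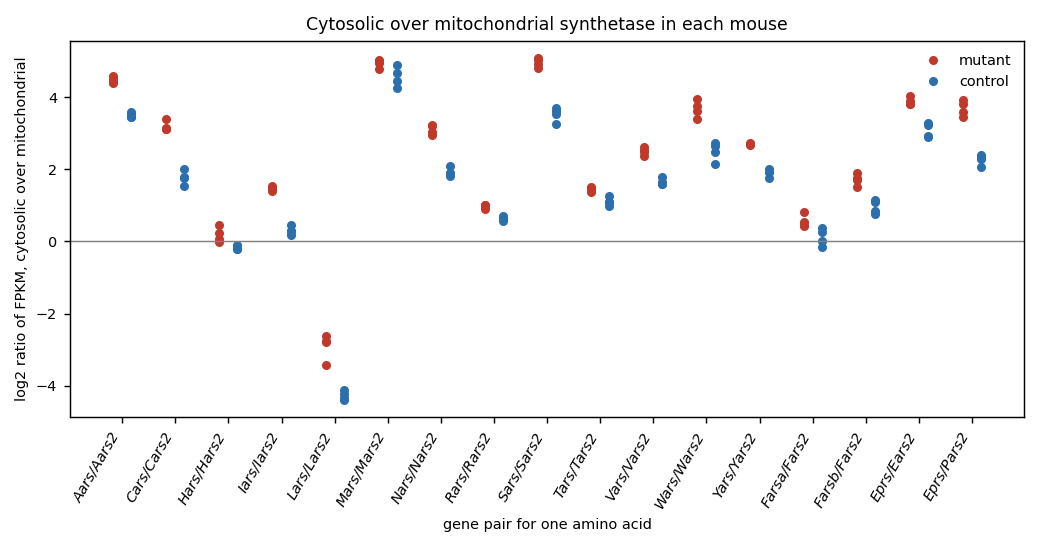
Log2 ratio of the authors' FPKM, cytosolic over mitochondrial gene, for 17 pairs that serve an amino acid, with mutants in red on the left and controls in blue, a point per mouse. The mutants lie above the controls in every pair but Mars over Mars2.

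Levels between genes were compared per length, as the authors' FPKM. In controls Lars2 had the highest level, 313 ± 23.1 FPKM, followed by Qars with 79.9 ± 4.46, Sars with 78.3 ± 4.68 and Aars with 73.0 ± 4.82 (SD, n = 4). Qars and Sars did not differ beyond their spread. In mutants Lars2 with 269.9 ± 40.9 and Sars with 267 ± 18.7 FPKM were level within their spread, and Aars followed with 193 ± 19.1 and Nars with 139.7 ± 10.1. Qars, second in controls, had 90.4 ± 3.56 FPKM in mutants and stood at position 11 of 36. After Lars2, the mitochondrial genes with the most mRNA per length were Rars2, with 46.1 ± 2.91 FPKM in mutants and 43.8 ± 1.65 in controls, and Iars2, with 41.3 ± 2.63 and 37.7 ± 1.86. FPKM and CPM scale the libraries differently, and FPKM were not used to test mutants against controls. In CPM, Rars2 averaged 38.8 in mutants and 39.0 in controls, and Rars2, Iars2 and Qars did not pass the test. The lowest member was Mars2, with 2.17 ± 0.190 FPKM in mutants and 1.42 ± 0.179 FPKM in controls.

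Other genes around tRNA charging rose in part. These lists were drawn up with earlier results known. Over 6 lists with 64 genes, 63 were tested, of which 31 rose and 6 fell, against 23.5% and 22.7% of all genes tested, and the median was 0.18. With the sex term 14 rose and 3 fell, and with Mut1819 as the only mutant 13 rose and 1 fell. Without Mut1819 2 fell, without Con1452 3, and without the filter on low counts 3. Mitochondria make glutaminyl-tRNA by amidation, with the enzyme subunits encoded by Qrsl1, Gatb and Gatc. Qrsl1 averaged 27.8 ± 2.83 CPM in mutants and 20.2 ± 2.66 CPM in controls, a log2 fold change of 0.46 with an SE of 0.10 (adjusted p = 0.00351). Gatb, listed under an older name, averaged 25.8 ± 0.815 CPM in mutants and 39.4 ± 4.92 CPM in controls, a log2 fold change of -0.61 with an SE of 0.09 (adjusted p = 0.00011). Gatc and Mtfmt, which formylates initiator tRNA, did not pass, with 0.09 and 0.08. Among enzymes of editing and selenocysteine charging, 0 of 5 tested rose and 3 fell, namely Sepsecs (-0.29), Prorsd1 (-0.24) and Dtd2 (-0.26).

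RNA polymerase III and its factors, which transcribe tRNA genes, had 11 of 23 rising and 1 falling, with a median of 0.16. The smallest adjusted p were those of the subunit genes Polr1c (0.43), Polr3c (0.41), Polr3b (0.34) and Polr3g (0.69), and Maf1, which restrains the polymerase and was named after its value was seen, fell by 0.32. Of 24 genes for tRNA processing and export, 13 rose and 1 fell, with a median of 0.22. Xpot, the exporter that carries tRNA out of the nucleus, had 235, 259, 252 and 231 CPM in the mutants, against 110.0, 115, 115 and 114 CPM in the controls. It had the smallest adjusted p on its list, with no overlap and a log2 fold change of 1.11 with an SE of 0.06 (adjusted p = 4.17e-08). It was followed by the trailer-cutting enzyme Elac2 (0.48), the CCA-adding enzyme Trnt1 (0.36) and the RNase P subunit Rpp38 (0.71), and Elac1, named after its value was seen, fell by 0.28. Among genes for sensing uncharged tRNA, the kinase gene Eif2ak4, which encodes GCN2, rose by 0.23 and its activator gene Gcn1 by 0.27, while Impact had 0.07 and did not pass. Atf4 was on this list as the transcription factor of the integrated stress response, and what its change followed from was not tested. It had 280.4, 357, 357 and 338 CPM in the mutants, against 121, 119, 126 and 121 CPM in the controls. Its mutants and controls were far apart, with a log2 fold change of 1.45 with an SE of 0.08 (adjusted p = 6.22e-08).

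**Figure D5:**
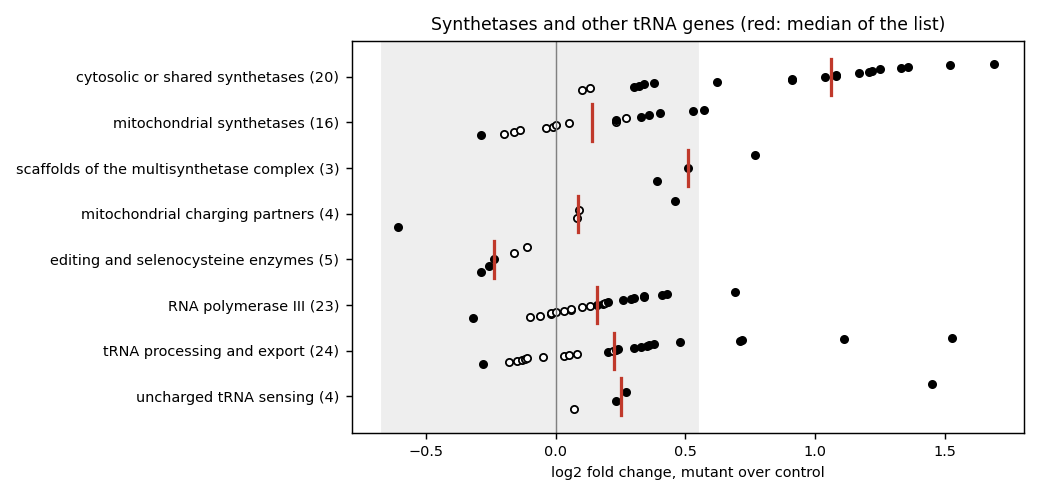
Log2 fold change, mutant over control, of the synthetases and of the genes on 6 other lists of tRNA biology, a point per gene, filled where the adjusted p is under 0.05, with a red line at the median of the list and a grey band from -0.67 to 0.55, the 10th to 90th percentile of all genes tested. The cytosolic synthetases have the highest median, 1.06.

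Several counts could include or lose reads of other genes. A processed pseudogene, Gm4849, matches 49.9% of the longest Iars transcript at 95% identity or more, and its own counts were 7 over the mutants and 14 over the controls. The next largest shares matching other genes were 11.6% for Cars2, 7.57% for Kars, 5.98% for Tars2 and 4.67% for Farsa. For Lars2, the member with the highest counts, the share was 3.13%, including 72 bases that match Gm15564. Only the longest transcript of each gene was searched. For Lars2 it has 3894 bases, while the gene has 11089 exonic bases, so matches in the rest were not examined. Exons of Exosc6 on the same strand overlap 15.1% of the exonic bases of Aars. Genes on the opposite strand overlap 24.2% for Iars2, 10.7% for Fars2, 9.47% for Farsb and 8.52% for Vars2, and strandedness is not given in the sources used here. Hars and Hars2 start from opposite strands and share 7.97% and 4.56% of their exonic bases. Ddit3, on the strand opposite Mars, overlaps 1.99% of its exonic bases and itself averaged 90.1 ± 9.54 CPM in mutants and 7.82 ± 0.757 CPM in controls. The share of reads that this concerns was not measured.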

How the data were processed

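RNA-seq of renal cortex from 8 mice, a library each, was analysed. The authors deposited whole-number counts per gene, which per the submitters' processing notes involved Bowtie2, TopHat2, HTSeq and the mm10 genome, while their versions, the annotation and the strandedness were not given in the sources used here. Levels between genes and ratios within a mouse rest on the authors' deposited FPKM values, which are scaled by gene length. The authors' deposited table of log2 fold changes and p-values, with DESeq2 named in the submitters' processing notes, was compared with the calls made here.

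The test here was the quasi-likelihood F test of edgeR 4.0.16 (R 4.3.3) on genes that passed filterByExpr, with TMM scaling, no covariate, Benjamini-Hochberg adjustment over all 15028 genes, and a threshold of 0.05. The SE given with a log2 fold change is its absolute value divided by the square root of the F statistic. The procedure was tested on simulated counts in which far fewer genes changed than passed the threshold here. How it behaves when so many genes change was not tested. Alternatives were DESeq2 1.42.0, limma-voom 3.58.1, size factors from median ratios, totals that leave out genes of the mitochondrial genome, dropping the filter, filtering at 10 CPM in 4 mice, terms for Y-linked counts or for the range of mouse numbers, Mut1819 as the only mutant (assumed to vary as the controls do), and each mouse left out. Libraries within a group differed beyond sampling noise, with reduced chi-square from 4.63 up. Members with an absolute log2 change of at least 1, and mitochondrial members past the threshold, are given mouse by mouse, and of each other list up to 4 genes with the smallest adjusted p. Members and lists were chosen with earlier results of these data known. Promoter windows come from RefSeq (GRCm38.p6), and gene positions from GENCODE M21.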

Additional observations from a re-analysis of the deposited data

Results flagged for a closer look

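In 5 of the 72 sets of 4 mice examined (36 genes in 2 groups), a mouse stood far from the other 3, by Dixon's 95% critical value for the gap over the range, which chance passes in about 1 of 20 sets. Kars had 158 CPM in Mut1454, against 138 to 141 CPM in the other mutants. Hars had 55.4 CPM in Con1822, against 58.4 to 58.7 CPM in the other controls. Vars had 90.3 CPM in Con1822, against 74.3 to 76.8 CPM in the other controls. Rars had 72.3 CPM in Con1452, against 65.5 to 66.3 CPM in the other controls. Wars2 had 22.2 CPM in Con1452, against 16 to 16.8 CPM in the other controls. Without Con1452 the log2 fold change of Wars2 was 0.46 (adjusted p = 0.00233 in edgeR), against 0.33 with all mice.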

How the results depend on the processing

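Of the 18 cytosolic genes that rose, 16 kept the call in all 17 alternatives, and the exceptions were Farsa and Hars with the sex term and with Mut1819 as the only mutant. The mitochondrial calls depended on the setting far more, where the 6 rising genes passed the threshold in 84 values and missed it in 18. With Mut1819 as the only mutant, the calls over all genes were 1682 higher and 2002 lower, the mitochondrial calls 1 higher and 2 lower, and the calls among the other tRNA genes 13 higher and 1 lower. With the sex term they were 1891 higher and 2076 lower over all genes, 1 higher among mitochondrial members, and 14 higher and 3 lower among the other tRNA genes. Without the filter 0 mitochondrial members and 3 of the other tRNA genes were lower. Leaving out each mouse in turn gave 0 to 1 mitochondrial members and 2 to 7 other tRNA genes called lower. Signs changed only for genes near 0 that did not pass. Iars2 was -0.12 with Mut1819 alone and -0.11 with the sex term. Rars2 was 0.06 with Mut1819 alone, 0.06 with the sex term, 0.01 without the filter, and -0.04 to 0.05 with mice left out. Nars2 was 0.01 without the filter and -0.08 to 0.06 with mice left out. The cause was not tested. The motif was in 5 members over the whole window. Its longer form was in 1 member over the 250 bases before the start and in 2 over the whole window. No paired analysis was possible because the labels give the groups no shared replicate numbers. A fit with mouse-number range as a block (each range holds mutants and controls) left the counts at 18 cytosolic and 6 mitochondrial genes higher and 1 mitochondrial gene lower. Only Mut1819 tells sex and genotype apart, so the sex term and Mut1819 as the only mutant rest on the same contrast. Whole cortex mixes cell types, and the markers of many of them shifted.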
